A study of Homo sapiens with 57 samples.

Results

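The messenger RNAs described here encode core splicing factors and SR proteins. They are 10 transcripts of 9 genes: SRSF1, SRSF2 (2 transcripts), SRSF3, SRSF7, TRA2B, SF3B1, U2AF1, U2AF2 and PTBP1. The 10 identifiers and their gene symbols came from a fixed list and not from a measured value. All 10 were found among the 228715 transcripts of the deposited tables, and all 10 were among the 78478 transcripts that had enough reads to be tested.

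Polyadenylated RNA was sequenced from HCT116, a human colorectal carcinoma cell line, in 9 libraries, 3 from each of 3 groups. Every group carried an Spt5-HA-dhfr fusion, was grown without trimethoprim and was treated with doxycycline at 2 ug/ml for 24 hours to induce an Avi-tagged Spt5 fragment, residues 1 to 820. All 3 were kept under the same selection, with hygromycin at 200 ug/ml, G418 at 1 mg/ml and blasticidin at 15 ug/ml. Spt5 is a transcription elongation factor of RNA polymerase II. The groups differed in the CTR1 of the fragment, which was WT, TA7 or TE7, and each form was carried by a cell line of its own, so that form and cell line cannot be told apart. The labels do not say whether a line was 1 clone, how much Spt5 fusion the cells still had, or whether the 3 libraries of a group came from separate cultures. The p-values therefore measure only the spread between these libraries, which may be technical. The series holds 48 further samples with other measurements, which were not analysed here.

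SR proteins bind exonic sequences through RNA recognition motifs and recruit the splicing machinery through domains rich in arginine and serine. U2AF, a dimer of the U2AF1 and U2AF2 proteins, recognises the 3' splice site, after which the U2 particle, with its subunit SF3B1, binds the branch point. PTBP1 binds pyrimidine-rich RNA and often represses exons. Many SR protein genes, SRSF2, SRSF3 and TRA2B among them, make alternative transcripts with a premature stop codon, which are degraded, and through these the proteins limit their own levels. The measurements below are of the listed transcripts alone and are not totals of the genes.

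Library totals ran from 64364751 to 90805283 estimated reads, and the 10 transcripts together took 0.090% to 0.103% of them. Levels are given in CPM, counts relative to the library total after scaling of the libraries, for comparisons of 1 transcript between libraries. TPM, taken as deposited, divides by an adjusted transcript length estimated for each library and did not receive this scaling. It is used where transcripts are compared with each other. Over all tested transcripts, Spearman correlations were 0.823 to 0.873 between libraries of the same group, 0.810 to 0.854 between TE7 and TA7 libraries and 0.781 to 0.821 between TE7 and WT libraries. Of the 3 WT libraries, replicate 1 was the nearest to the TE7 mean for 7 of the 10 members and for 43.9% of all tested transcripts. Of the 3 TA7 libraries, replicate 1 was likewise the nearest for 7 of the 10 members and for 43.2% of all. The counts of called members are therefore also given without these libraries.

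The stretch of 100 bases upstream of the gene start is shown for the genes whose transcripts had an unadjusted p under 0.05 in a comparison, or passed the threshold in an alternative analysis, and that the RefSeq promoter table (GRCh38.p14) holds. The table held 8 of the 9 genes, with 11 windows. SRSF2 had no entry. Capitals mark the TATA box motif TATAAA, the CCAAT motif and the GC box motif GGGCGG on either strand. The sequences run 5' to 3' on the strand of the gene, which was the plus strand for SRSF3 (chr6:36594262-36594361) and PTBP1 (chr19:797352-797451). It was the minus strand for SRSF1 (chr17:58007247-58007346), TRA2B (chr3:185938015-185938114) and SF3B1 (chr2:197435094-197435193).
SRSF1: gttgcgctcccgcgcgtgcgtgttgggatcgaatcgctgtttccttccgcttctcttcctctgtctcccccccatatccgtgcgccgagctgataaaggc
SRSF3: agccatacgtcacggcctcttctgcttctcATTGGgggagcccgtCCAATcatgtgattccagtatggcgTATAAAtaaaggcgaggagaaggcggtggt
TRA2B: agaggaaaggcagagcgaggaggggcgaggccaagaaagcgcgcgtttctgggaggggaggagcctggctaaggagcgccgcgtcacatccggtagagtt
SF3B1: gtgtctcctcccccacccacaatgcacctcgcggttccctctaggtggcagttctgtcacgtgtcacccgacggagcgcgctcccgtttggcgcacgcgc
PTBP1: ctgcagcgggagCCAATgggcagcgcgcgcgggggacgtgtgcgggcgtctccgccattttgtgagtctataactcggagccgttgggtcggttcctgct

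The SRSF3 window held TATAAA, with its first base at position -30 from the RefSeq start, and CCAAT on each strand. The PTBP1 window held 1 CCAAT. The SRSF1, TRA2B and SF3B1 windows held none of the 3 motifs. Among the 8 genes with an entry, TATAAA was found for 2, CCAAT for 2 and GGGCGG for 4, where any window of a gene counted. Counted by window, TATAAA was in 2 of the 11, CCAAT in 2 and GGGCGG in 5. The second TATAAA was in an SRSF7 window that is not shown. Of all 35116 windows of the table, cut to the same 100 bases, 4.99% held TATAAA, 18.1% CCAAT and 31.3% GGGCGG. The motifs do not overlap one another in the windows shown. The windows shown are those of the outermost RefSeq starts, which need not be the starts of the measured transcripts. A match describes only the letters. The G and C content of the 11 windows was 53% to 83%, against a median of 60% over the table.

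The members differed widely in level. On the TPM scale, PTBP1 was the highest in every group, at 117.7 ± 6.77 in WT, 134.0 ± 1.09 in TA7 and 124.7 ± 4.89 in TE7 (SD, n = 3). The SRSF2 transcript ENST00000359995 came next (91.8 ± 6.52 TPM in WT), followed by SF3B1 (60.2 ± 10.3 TPM) and U2AF2 (35.2 ± 0.49 TPM). Within every group the TPM ranges of these 4 transcripts did not overlap with each other. Below them, the second SRSF2 transcript (22.1 ± 7.31 TPM in WT), SRSF3 (19.7 ± 3.06) and SRSF1 (16.5 ± 4.41) had ranges that overlapped between neighbours in WT and TA7, so that their order was not resolved. In TE7, SRSF3 stood above both, at 25.5 ± 2.97 TPM, with no overlap with the next member. SRSF7 (8.54 ± 0.67 TPM in WT) and TRA2B (2.67 ± 0.65) were the lowest apart from U2AF1, whose level depended on the library.

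**Figure D1:**
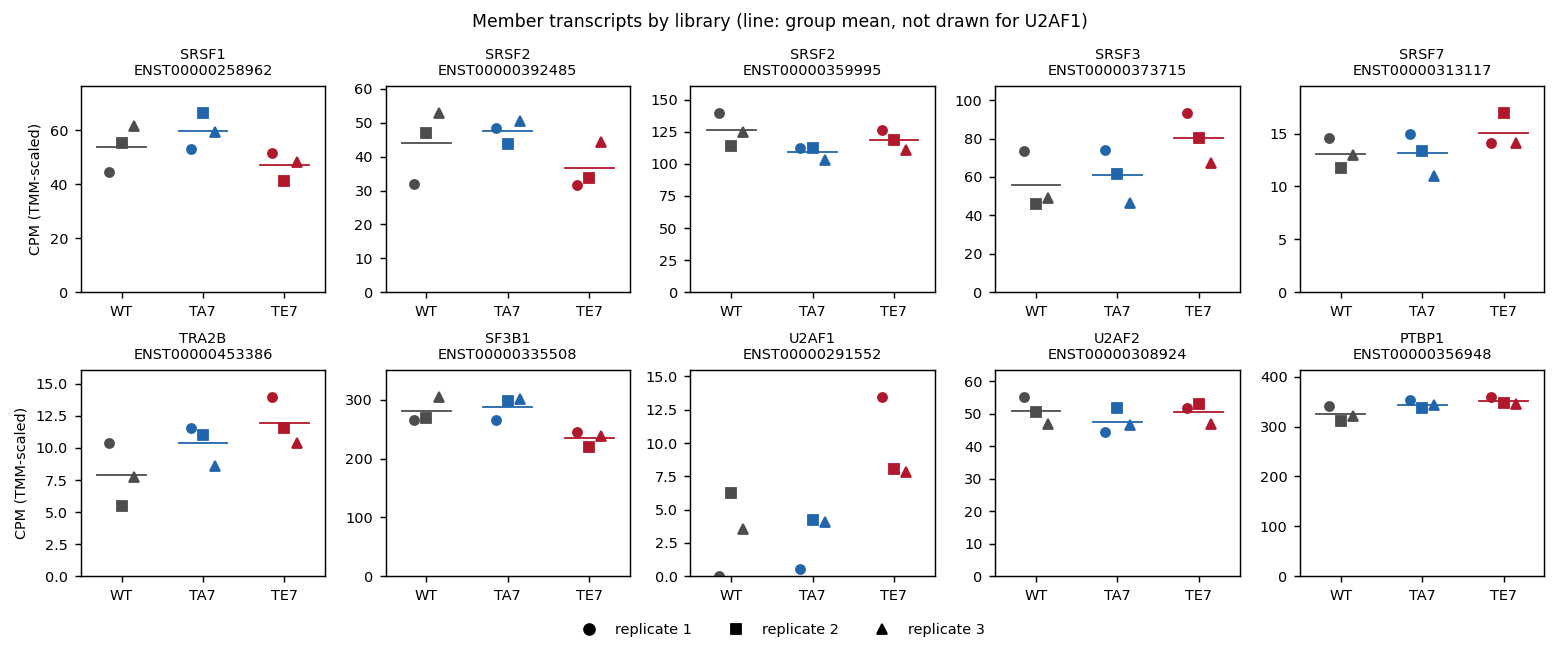
Level of each of the 10 transcripts in each library, in CPM scaled by TMM on a linear axis that starts at 0; symbols give the replicate and lines the group mean. SF3B1 was lower in the 3 TE7 libraries (246 or less) than in the other 6 (265.5 or more), while SRSF7 and U2AF2 overlapped between all groups.

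TE7 was first compared with WT. None of the 10 transcripts passed an adjusted p of 0.05 in edgeR's quasi-likelihood test, where 9.4% of all tested transcripts did. Of the 19820 with a mean of at least 5 CPM, among which all 10 members fall, 25% passed. U2AF1 reached that mean only through TE7. TRA2B and SF3B1 had an unadjusted p under 0.05, which is 2 of 10 against 25.3% of all. DESeq2 called 1 of the 10, SF3B1, against 20.2% of all, and limma on TPM called none. The groups did not overlap for 4 of 10 (TRA2B, U2AF1 and PTBP1 above, SF3B1 below), against 32.9% of all. For DESeq2, the unadjusted p and the overlap, shares in all comparisons were taken over all tested transcripts and not over those with at least 5 CPM. The median log2 change of the members was 0.05. That of all tested transcripts was -0.02, and that of the 19820 with at least 5 CPM was 0.04.

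TA7 against WT and TE7 against TA7 gave no call either. In TA7 against WT, edgeR called 0 of 10 members and 0.0612% of all transcripts (0.151% of those with at least 5 CPM), and DESeq2 called 0 and 2.81%. The SRSF2 transcript ENST00000359995 alone had an unadjusted p under 0.05 (7.73% of all), and it alone did not overlap between the groups (14.1% of all). The median log2 change was 0.06 for the members, 0.00 for all and -0.0045 for those with at least 5 CPM. In TE7 against TA7, edgeR called 0 of 10 and 3.07% of all (9.63% of those with at least 5 CPM), while DESeq2 called 1 (SF3B1) and 13.4%. There, SRSF1 and SF3B1 had an unadjusted p under 0.05 (19.3% of all), and SRSF1, SF3B1 and U2AF1 did not overlap (31.5% of all). The median log2 change was 0.10 for the members, -0.02 for all and 0.05 for those with at least 5 CPM. limma called no member in either comparison. The 2 comparisons with WT share the WT libraries, and the 2 with TE7 share the TE7 libraries.

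**Figure D2:**
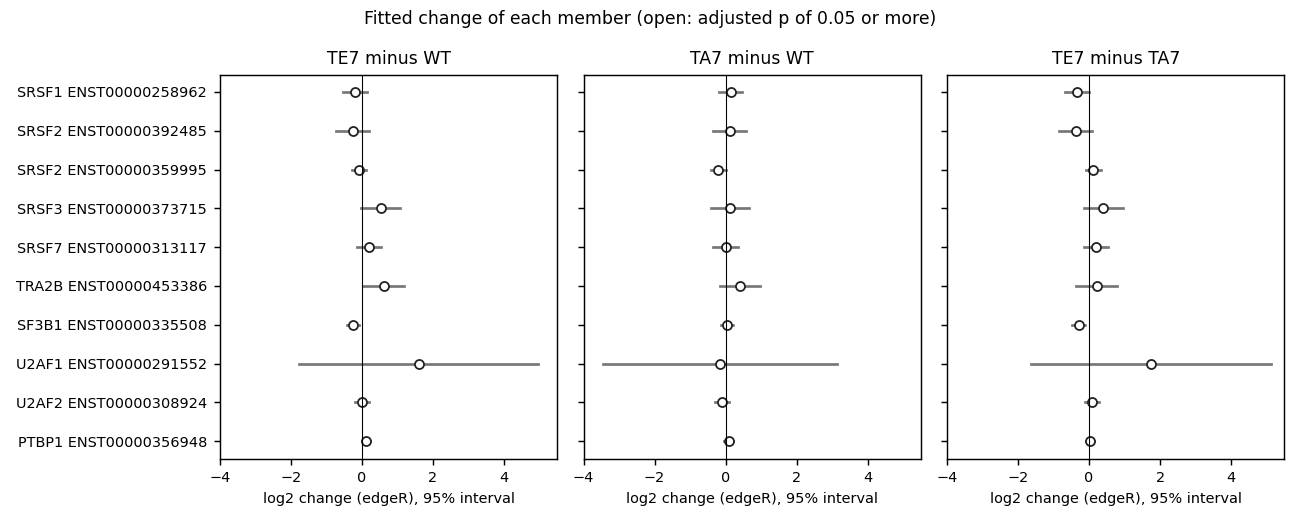
Fitted log2 change of each transcript (circles) with its 95% interval (bars) in the 3 comparisons, from edgeR. All circles are open because no adjusted p was under 0.05, and the interval of U2AF1 is by far the widest, at -1.77 to 4.95 in TE7 minus WT.

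SF3B1 (ENST00000335508), the U2 particle subunit that contacts the branch point region, had the smallest p in both comparisons with TE7. Its level was 266, 269 and 305 CPM in WT replicates 1 to 3, 265.5, 298 and 301 CPM in TA7, and 246, 219.8 and 239 CPM in TE7. Every TE7 library was thus below every WT and TA7 library. The log2 change from WT to TE7 was -0.26 (SE 0.08, 95% interval -0.44 to -0.07, edgeR adjusted p = 0.0855). From TA7 to TE7 it was -0.30 (SE 0.08, interval -0.48 to -0.11, edgeR adjusted p = 0.0917), and from WT to TA7 it was 0.04 (interval -0.14 to 0.22). DESeq2 gave the same 2 changes, -0.26 and -0.30, with adjusted p = 0.0128 and 0.00432. The call of SF3B1 in TE7 thus depended on the test. With 1 library left out, the change from WT to TE7 ran from -0.29 without WT replicate 1 to -0.19 without WT replicate 3 (edgeR adjusted p = 0.0701 and 0.226). Over all alternatives the change stayed negative in both comparisons, with adjusted p from 0.0128 to 0.279 against WT and from 0.00432 to 0.281 against TA7.

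SRSF3 is the smallest of the classical SR proteins and also takes part in mRNA export and 3' end processing. Its transcript, ENST00000373715, was at 73.3, 45.7 and 49.0 CPM in WT, 74.2, 61.6 and 46.5 CPM in TA7, and 93.5, 80.1 and 67.4 CPM in TE7. The lowest TE7 library lay below WT replicate 1 and TA7 replicate 1 and above the other 4 libraries. A log2 change of 0.52 was fitted from WT to TE7 (SE 0.23, interval -0.02 to 1.06, edgeR adjusted p = 0.214). It was 0.12 (interval -0.42 to 0.66) from WT to TA7 and 0.40 (interval -0.14 to 0.94, edgeR adjusted p = 0.409) from TA7 to TE7. With 1 library left out, the change from WT to TE7 ran from 0.40 without WT replicate 2 (edgeR adjusted p = 0.433) to 0.77 without WT replicate 1 (edgeR adjusted p = 0.0700). With a term for replicate number in the model (the replicate block) it was 0.54 (SE 0.11, edgeR adjusted p = 0.0516). Without replicate 1 of both WT and TA7 it was 0.76 (edgeR adjusted p = 0.0494). From TA7 to TE7 it ran from 0.24 without TA7 replicate 3 to 0.57 without TA7 replicate 1, and limma on log2(TPM + 1) gave 0.24.

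TRA2B (ENST00000453386), a relative of the SR proteins that binds GAA-rich exonic enhancers, was a transcript of low level here. It stood at 10.4, 5.45 and 7.76 CPM in WT, 11.6, 11.0 and 8.56 CPM in TA7, and 14.0, 11.5 and 10.4 CPM in TE7. The lowest TE7 library and WT replicate 1 were both at 10.4 CPM, so that the groups were separated by less than the rounding of these values. From WT to TE7 the log2 change was 0.61 (SE 0.25, interval 0.04 to 1.18, edgeR adjusted p = 0.173). From WT to TA7 it was 0.40 (interval -0.17 to 0.97) and from TA7 to TE7 0.21 (interval -0.36 to 0.78), neither past the threshold. With 1 library left out, the change from WT to TE7 ran from 0.40 without WT replicate 2 (edgeR adjusted p = 0.340) to 0.86 without WT replicate 1 (edgeR adjusted p = 0.0552). limma on log2(TPM + 1) gave 0.38.

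SRSF1 (ENST00000258962), the founding SR protein and an activator of constitutive and alternative splicing, gave values in the other direction in TE7. It was at 44.7, 55.5 and 61.7 CPM in WT, 53.3, 66.6 and 59.4 CPM in TA7, and 51.6, 41.1 and 48.3 CPM in TE7. WT and TE7 overlapped because WT replicate 1 was the second lowest of the 9 libraries, whereas every TE7 library was below every TA7 library. The log2 change from TA7 to TE7 was -0.35 (SE 0.14, interval -0.68 to -0.02, edgeR adjusted p = 0.240), and from WT to TE7 it was -0.20 (interval -0.53 to 0.13, edgeR adjusted p = 0.449). The latter ran from -0.31 without WT replicate 1 (edgeR adjusted p = 0.173) to -0.09 without WT replicate 3 (edgeR adjusted p = 0.804), and was also -0.09 without TE7 replicate 2. From WT to TA7 the change was 0.15 (interval -0.18 to 0.48), and 0.04 without WT replicate 1. The effective length of this transcript, an adjusted length that Salmon estimates for each library, ran from 3807 to 4461 over the libraries for a length of 5343 bases. With that length in the model, the change from WT to TE7 was -0.32.

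SRSF7 (ENST00000313117), an SR protein with a zinc knuckle, was between 11.0 and 17.0 CPM in the 9 libraries. Its group means were 13.1 ± 1.45 CPM in WT, 13.1 ± 2.01 in TA7 and 15.1 ± 1.66 in TE7 (SD, n = 3), and all groups overlapped. The log2 change was 0.20 (interval -0.14 to 0.54) from WT to TE7 and 0.00 (interval -0.34 to 0.34) from WT to TA7. Changes of up to 0.54 in TE7 therefore lie inside the interval. On the log2(TPM + 1) scale, limma gave 0.06 from WT to TE7.

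SRSF2, an SR protein also known as SC35, was represented by 2 transcripts. ENST00000359995, the higher one, was at 139.8, 114 and 124 CPM in WT, 112, 112 and 103 CPM in TA7, and 127, 119 and 111 CPM in TE7. The 3 TA7 libraries were below the 3 WT libraries, and TE7 overlapped with both groups. The log2 change from WT to TA7 was -0.21 (SE 0.09, interval -0.41 to -0.00, edgeR adjusted p = 0.644), from WT to TE7 -0.09 (interval -0.29 to 0.12) and from TA7 to TE7 0.12 (interval -0.08 to 0.32). Without WT replicate 1 the first of these was -0.11 (edgeR adjusted p = 0.721) and the second -0.0004. ENST00000392485 was at 31.8, 47.0 and 53.0 CPM in WT, 48.4, 43.7 and 50.4 CPM in TA7, and 31.6, 33.7 and 44.4 CPM in TE7. WT replicate 1 and TE7 replicate 1 were nearly equal and the lowest of the 9. The log2 change from WT to TE7 was -0.26 (interval -0.73 to 0.20, edgeR adjusted p = 0.475). It ran from -0.45 without WT replicate 1 (edgeR adjusted p = 0.115) to -0.11 without WT replicate 3 (edgeR adjusted p = 0.840), and was -0.15 without TE7 replicate 1. From TA7 to TE7 it was -0.38 (interval -0.84 to 0.08, edgeR adjusted p = 0.357). Reads that both transcripts share are divided between them by estimation. SRSF2 also overlaps the gene MFSD11 on the opposite strand, and whether the counting used strand is not given in the sources used here.

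The balance of the 2 SRSF2 transcripts was therefore compared as a share. ENST00000359995 made up 86.8%, 78.1% and 77.6% of their summed TPM in WT, 77.9%, 79.5% and 75.2% in TA7, and 85.9%, 84.2% and 79.0% in TE7. Within WT, replicate 1 stood above the other 2 libraries by more than any difference between group means. TE7 differed from WT by 2.16 percentage points (exact two-sided permutation p = 0.7), TA7 from WT by -3.30 (exact p = 0.5) and TE7 from TA7 by 5.47 (exact p = 0.2). Adjusted over the 3 comparisons these were 0.7, 0.7 and 0.6, and 3 libraries against 3 cannot give a p below 0.1. With the reads of both transcripts summed, the log2 change was -0.13 from WT to TE7 (SE 0.05, interval -0.25 to -0.01, edgeR adjusted p = 0.154), -0.12 from WT to TA7 (edgeR adjusted p = 0.644) and -0.01 from TA7 to TE7 (edgeR adjusted p = 0.937).

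**Figure D3:**
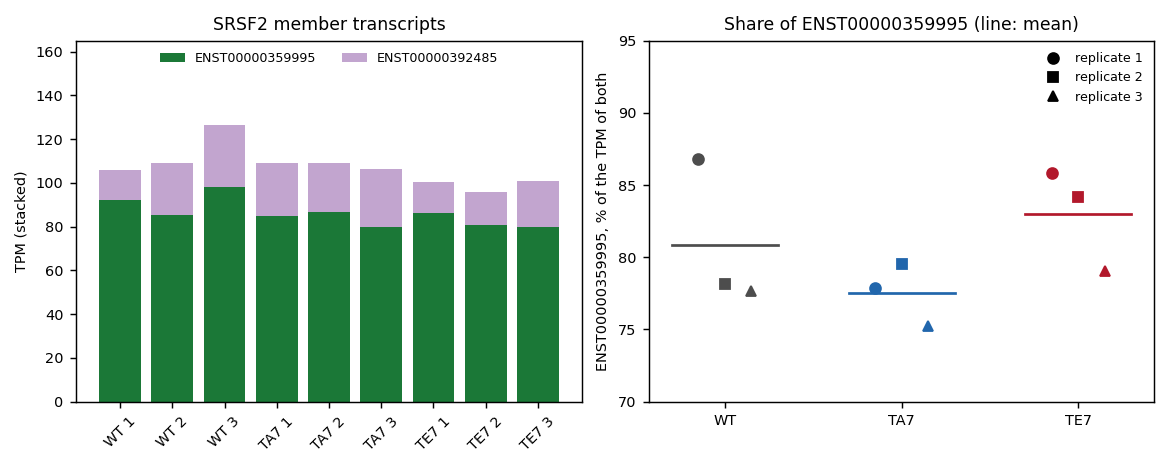
Left, TPM of the 2 SRSF2 transcripts stacked per library on an axis from 0. Right, share of ENST00000359995 in their summed TPM (percent, axis from 70 to 95) with group means as lines: WT replicate 1, at 86.8%, lies with TE7 replicate 1, at 85.9%, and apart from the other WT libraries.

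U2AF2 (ENST00000308924), the large U2AF subunit that binds the polypyrimidine tract, was among the steadiest members. It was at 55.3, 50.5 and 46.9 CPM in WT, 44.5, 51.7 and 46.7 CPM in TA7, and 51.8, 53.1 and 47.0 CPM in TE7, with all groups overlapping. The log2 change was -0.01 (interval -0.21 to 0.20) from WT to TE7, -0.10 (interval -0.30 to 0.11) from WT to TA7 and 0.09 (interval -0.12 to 0.29) from TA7 to TE7.

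U2AF1, the small U2AF subunit that reads the AG of the 3' splice site, was the most variable member. Its transcript, ENST00000291552, was listed at 0 reads in WT replicate 1, and at 406 and 245 reads in the other WT libraries, or 6.22 and 3.51 CPM. A count of 0 allows up to 3 reads, or 0.0501 CPM in that library, by counting error alone, but an estimated count of 0 can also mean that shared reads were given to another transcript. A near-identical copy of U2AF1 exists in some genome annotations, and whether the transcript set held it is not given in the sources used here. In TA7 it was at 0.509, 4.20 and 4.05 CPM and in TE7 at 13.5, 8.05 and 7.82 CPM. All 3 TE7 libraries were thus above the other 6. The fitted log2 change from WT to TE7 was 1.59, with an interval from -1.77 to 4.95 (edgeR adjusted p = 0.571), and from TA7 to TE7 it was 1.74 (interval -1.63 to 5.12, edgeR adjusted p = 0.603). Leaving out 1 library at a time moved the change from WT to TE7 between 1.01, without WT replicate 1, and 2.48, without WT replicate 2. It was 2.96 with limma on log2(TPM + 0.1), which did not pass the threshold either.

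PTBP1 (ENST00000356948), the pyrimidine tract binding repressor, was measured with the narrowest intervals. It was at 342, 310.5 and 321 CPM in WT, 353, 336 and 342 CPM in TA7, and 359.7, 347 and 345 CPM in TE7. The TE7 libraries were all above the WT libraries by CPM, while by TPM the 2 groups overlapped. By TPM the TA7 libraries (133.1 to 135.3) were all above the WT libraries (112.5 to 125.4), whereas by CPM these 2 groups overlapped. Between WT and TE7 the log2 change was 0.11 (SE 0.05, interval -0.00 to 0.22, edgeR adjusted p = 0.206), from WT to TA7 0.08 (interval -0.03 to 0.20) and from TA7 to TE7 0.03 (interval -0.09 to 0.14). From WT to TA7, limma on log2(TPM + 1) gave 0.19 and scaling by library size alone 0.14, and neither passed the threshold. Without WT replicate 1 the change from WT to TE7 was 0.15 and passed the threshold (edgeR adjusted p = 0.0446), as it did without both replicates 1 (0.15, edgeR adjusted p = 0.0393). Without WT replicate 2 it was 0.08 (edgeR adjusted p = 0.415). Any change in this transcript was thus small on this scale, whether or not it was called.

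**Figure D4:**
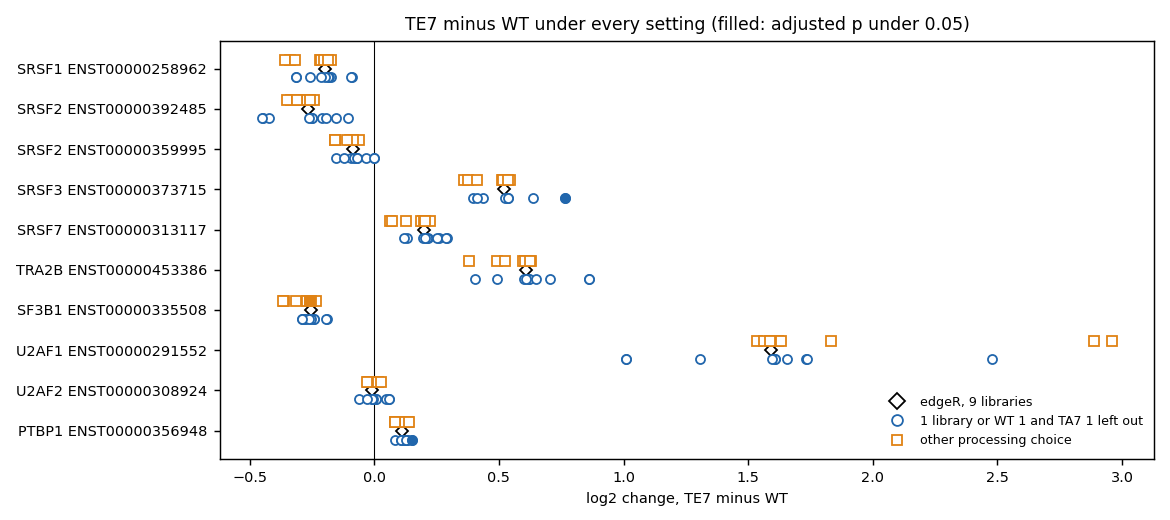
Log2 change from WT to TE7 of each transcript under edgeR on 9 libraries (diamonds), with libraries left out (circles) and under other processing choices (squares), filled where the adjusted p was under 0.05. Filled symbols appear for SRSF3, SF3B1 and PTBP1. SF3B1 stays below 0 throughout, and U2AF2 is the only transcript with values on both sides of 0.

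Without WT replicate 1, edgeR called 1 of the 10 members in TE7 against WT (PTBP1), where 11.7% of all transcripts were called. Without replicate 1 of both WT and TA7, an analysis chosen after the data were seen, it called 2 of 10 in TE7 against WT (SRSF3 and PTBP1 higher, 11.9% of all). In TE7 against TA7 it then called 1 of 10, SF3B1, with a log2 change of -0.36 (edgeR adjusted p = 0.0432, 6.04% of all). The share among transcripts with at least 5 CPM, where all members fall, was not computed with these libraries left out. With no library left out, it was 25% in TE7 against WT, where the share of all was 9.4%. The libraries left out are those nearest to the TE7 mean for most members, so leaving them out widens the differences from TE7 by construction, and the added calls are a description only.

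Changes in TE7 also went with transcript length over the whole table. The median log2 change from WT to TE7, among transcripts that averaged 5 CPM or more, was 0.16 for lengths under 1000 bases, 0.20 for 1000 to under 2000 bases, 0.09 for 2000 to under 4000, -0.16 for 4000 to under 8000 and -0.43 for 8000 or more. SF3B1 (6526 bases), SRSF1 (5343), SRSF3 (4228) and TRA2B (4178) fall in the class from 4000 to under 8000, where the middle 50% of changes ran from -0.52 to 0.17. Within it, SF3B1 was at percentile 42.5 and SRSF1 at percentile 46.8, so both lay near the middle of transcripts of like length. SRSF3 was at percentile 90.4 and TRA2B at percentile 92.2. U2AF1 (962 bases) was at percentile 99.0 of the shortest class. It averaged 3.24 CPM in WT, 2.92 in TA7 and 9.78 in TE7, so it met the limit of 5 CPM only through TE7. The filter thus favoured a high rank for it in TE7, and WT replicate 1 held 0 reads of it, so this rank is a description only. PTBP1 (3206) was at percentile 52.0 and SRSF7 (2356) at 59.5 of the class from 2000 to under 4000. The lowest were ENST00000392485 of SRSF2 (2885 bases) at percentile 23.7, ENST00000359995 of SRSF2 (1927) at 27.1 and U2AF2 (1698) at 32.4 of their classes. The part of length in the members' values was not tested.

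**Figure D5:**
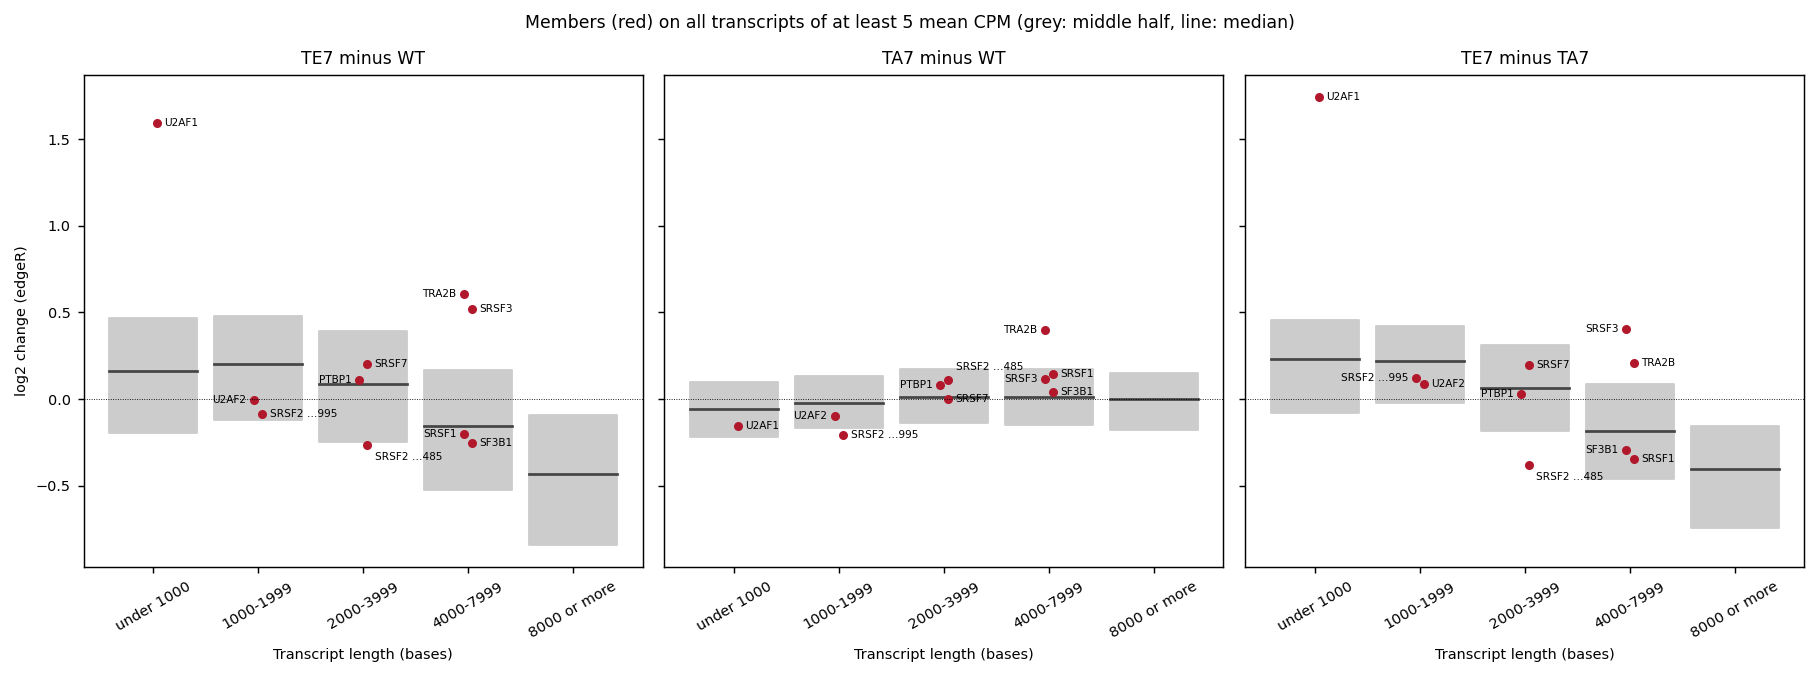
Log2 change of the members (red) by class of transcript length in bases, over the median (line) and the middle 50% (grey box) of all transcripts with a mean of at least 5 CPM. In TE7 minus WT the medians go from 0.16 under 1000 bases and 0.20 at 1000 to under 2000 to -0.43 at 8000 or more, and SF3B1 and SRSF1 lie inside the box of their class while SRSF3 and TRA2B lie above it.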

How the data were processed

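Adapters were handled with cutadapt 2.3 and reads quantified with Salmon 1.3.0, and the build is hg19, all per the submitters' processing notes. No label or header names the transcript set or the library type. The tables deposited by the authors hold, by their headers, for each transcript its length, effective length, TPM and estimated counts, which are not normalized and divide shared reads among transcripts.

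Estimated counts were rounded. Members were matched by transcript identifier, and their symbols came with the list. All 9 libraries entered one quasi-likelihood model with a term for group (edgeR 4.0.16, R 4.3.3; glmQLFit, glmQLFTest), after edgeR's default filter and TMM scaling (0.92 to 1.037). P-values were adjusted over all 78478 tested transcripts (Benjamini-Hochberg, threshold 0.05). Alternatives were DESeq2 1.42.0, limma 3.58.1 on log2(TPM + 1) and log2(TPM + 0.1), other scalings and filters, an effective length offset, 2 groups only, a replicate block, and libraries left out. The script was tested on simulated data, with planted changes larger than those fitted for any member but U2AF1. That test does not show whether changes of the size fitted for the other members would be called. SRSF2 shares were compared by exact permutation (scipy 1.17.1).

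Every member is named. The members and lists were chosen with earlier results of these data known. Other splicing genes, the level of Spt5 itself and cell type markers need a pairing of transcripts with genes and were not analysed here. Promoter sequences are from RefSeq. Reads are not independent molecules, so the limit of 3 reads covers counting error only.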

Additional observations from a re-analysis of the deposited data

How the results depend on the processing

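Each result was recomputed under 20 alternatives per comparison, and the summed reads were an extra one for SRSF2. Of 606 changes obtained for the members, 563 kept their direction and their side of the threshold, 6 passed the threshold where the reported value did not, and 37 changed sign; 32 of these were for members other than U2AF1. The reported log2 change was 0.15 or less in size wherever a sign changed. The number of members called in TE7 against WT was 1 with DESeq2, 0 to 1 when 1 library was left out, and 2 without WT and TA7 replicates 1. In TE7 against TA7 it was 1 with DESeq2, 0 when any 1 library was left out, and 1 without both replicates 1, and in TA7 against WT it was 0 in all alternatives. Same-numbered libraries of different groups deviated together with correlations of -0.049 to 0.236, over 0.1 in 3 of 9 pairs. For libraries of different groups and different numbers these correlations were -0.252 to 0.114. In 10 of 18 checks, each among the 3 libraries of another group, a library was most like its own number. These values do not settle whether equal numbers mark pairs. The main model took no pairs, and the replicate block was run as an alternative. With the replicate block, 0 members were called in each comparison, and 5313, 0 and 1097 transcripts in all for TE7 against WT, TA7 against WT and TE7 against TA7, where 7378, 48 and 2411 were called without it. The block moved the U2AF1 change from 1.59 to 2.89 in TE7 minus WT and from 1.74 to 2.76 in TE7 minus TA7.

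For TE7 minus WT, the U2AF2 change was 0.0152 with no filter, 0.0254 with the length offset, 0.0579 without both replicates 1 and -0.0613 to 0.0590 with 1 library left out. For TA7 minus WT, ENST00000392485 of SRSF2 gave -0.0776 without both replicates 1, -0.116 with summed reads and -0.0628 to 0.272 with 1 library left out, and SRSF3 gave -0.0369 to 0.371 with 1 left out. SRSF7 gave -0.0010 with DESeq2, -0.0014 with RLE scaling, -0.0061 with the replicate block, -0.0471 with the length offset, -0.0105 without both and -0.0920 to 0.117 with 1 left out. U2AF1 gave 0.12 with the replicate block, 0.18 and 0.93 with limma at pseudocounts 1 and 0.1, and -0.73 to 0.73 with 1 left out. U2AF2 gave 0.0055 and 0.0056 with limma and 0.0234 without both. For TE7 minus TA7, limma at pseudocounts 1 and 0.1 gave -0.0292 and -0.0295 for ENST00000359995 of SRSF2, -0.0322 and -0.0329 for U2AF2, and -0.104 and -0.105 for PTBP1, which was -0.0374 with library size alone; the summed SRSF2 reads gave -0.0137. The share of ENST00000359995 differed by 0.558 to 5.13 (TE7 minus WT), -4.91 to -0.343 (TA7 minus WT) and 4.05 to 7.47 points (TE7 minus TA7) with 1 library left out, and by 2.33, -4.45 and 6.77 from reads. The cause of these differences was not tested. Depth was lowest for U2AF1, TRA2B and SRSF7, at 17.0 CPM or less.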
